A study of Mus musculus with 441 samples.

Results

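Trimethylation of lysine 9 of histone H3 (H3K9me3) was measured by ChIP-seq in mouse embryonic stem cells, and the deposited table holds read counts in a window of 1000 bases around the start of each of 23167 genes. The windows described here are the 500 in which H3K9me3 exceeded input (whole cell extract, WCE) by the largest amount in serum, after each library had been scaled to its sum over all windows. Cells of the v6.5 line were kept with LIF, either with serum or with 2i (inhibitors of MEK and GSK3), and a Dgcr8 -/- line made in the v6.5 background, which lacks mature microRNAs, was grown in serum+LIF. Each culture had 1 library of H3K9me3, of input, of H3K4me3, H3K27me3, H3K27ac, H3K36me3 and of RNA polymerase II. For bulk RNA there were 2 libraries of serum cells, 1 of 2i cells and 2 of knockout cells, and single cells from 2 serum plates (90 and 93 cells), 1 2i plate (94 cells), 1 knockout plate (84 cells) and 54 nestin-positive neural precursors derived in culture from v6.5 cells. The labels do not say whether the replicates came from separate cultures or how many knockout clones were used.

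H3K9me3 is a mark of silent chromatin. In embryonic stem cells SETDB1 writes it where TRIM28 is brought to DNA by KRAB zinc finger proteins, mainly at retroviral repeats and at the methylated allele of imprinting control regions, where ZFP57 binds the hexamer TGCCGC. Promoters of germline genes, which act in meiosis or in piRNA defence against transposons, are also silenced in these cells, in part by a complex of E2F6, MGA and MAX that binds GCGGGA-like sites and the E-box CACGTG.

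The sequences of 8 members show the kinds of promoter among the 500. The 250 bases before the annotated start are given 5′ to 3′ on the gene's strand, from RefSeq (GRCm38.p6), with matches to TGCCGC, the hexamer CACGTG or the site GCGGGA on either strand in capitals. The first 5 belong to germline genes: Dazl, an RNA-binding protein of germ cells (chr17:50293621-50293870, minus strand), Tex12, a synaptonemal complex protein (chr9:50561269-50561518, minus), Taf7l, a germ cell form of a TFIID subunit (chrX:134476491-134476740, minus), Mael, of the piRNA pathway (chr1:166238745-166238994, minus), and Ddx4, the germ cell helicase Vasa (chr13:112652311-112652560, minus). The imprinted genes Peg3 (chr7:6730420-6730669, minus) and Plagl1 (chr10:13090582-13090831, plus) encode zinc finger proteins. The pheromone receptor gene Vmn1r113 (chr7:20787035-20787284, plus) stands for the AT-rich promoters of receptor clusters.
Dazl: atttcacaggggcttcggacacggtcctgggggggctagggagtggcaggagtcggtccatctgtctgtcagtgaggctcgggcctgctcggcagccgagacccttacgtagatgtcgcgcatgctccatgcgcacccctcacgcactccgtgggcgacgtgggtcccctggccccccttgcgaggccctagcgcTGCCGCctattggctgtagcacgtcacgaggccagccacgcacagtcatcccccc
Tex12: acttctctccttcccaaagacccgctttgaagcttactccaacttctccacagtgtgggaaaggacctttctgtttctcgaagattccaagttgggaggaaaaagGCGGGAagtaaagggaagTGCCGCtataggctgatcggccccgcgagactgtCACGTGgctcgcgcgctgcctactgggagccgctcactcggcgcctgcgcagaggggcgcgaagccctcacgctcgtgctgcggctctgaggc
Taf7l: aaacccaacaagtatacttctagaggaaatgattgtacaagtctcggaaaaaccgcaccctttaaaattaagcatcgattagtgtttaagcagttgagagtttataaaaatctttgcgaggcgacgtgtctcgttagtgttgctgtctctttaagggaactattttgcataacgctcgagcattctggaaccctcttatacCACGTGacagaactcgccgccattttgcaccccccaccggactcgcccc
Mael: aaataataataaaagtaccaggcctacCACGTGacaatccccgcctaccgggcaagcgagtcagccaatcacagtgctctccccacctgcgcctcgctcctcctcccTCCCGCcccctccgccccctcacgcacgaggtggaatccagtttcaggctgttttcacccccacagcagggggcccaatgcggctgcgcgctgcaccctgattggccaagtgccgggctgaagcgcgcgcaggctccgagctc
Ddx4: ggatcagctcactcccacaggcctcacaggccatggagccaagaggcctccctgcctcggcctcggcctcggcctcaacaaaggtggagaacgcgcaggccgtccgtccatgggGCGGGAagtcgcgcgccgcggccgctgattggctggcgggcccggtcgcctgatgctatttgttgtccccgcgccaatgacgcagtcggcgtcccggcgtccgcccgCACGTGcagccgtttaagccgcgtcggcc
Peg3: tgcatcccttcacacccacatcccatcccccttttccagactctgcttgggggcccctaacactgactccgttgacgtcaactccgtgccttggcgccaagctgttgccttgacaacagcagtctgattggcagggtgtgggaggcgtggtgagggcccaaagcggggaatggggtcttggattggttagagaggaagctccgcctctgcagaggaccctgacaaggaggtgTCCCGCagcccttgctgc
Plagl1: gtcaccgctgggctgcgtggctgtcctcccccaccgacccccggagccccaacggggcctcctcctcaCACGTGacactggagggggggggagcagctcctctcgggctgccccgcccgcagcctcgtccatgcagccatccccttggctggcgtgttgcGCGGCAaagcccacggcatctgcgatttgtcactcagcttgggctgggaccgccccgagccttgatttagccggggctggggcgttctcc
Vmn1r113: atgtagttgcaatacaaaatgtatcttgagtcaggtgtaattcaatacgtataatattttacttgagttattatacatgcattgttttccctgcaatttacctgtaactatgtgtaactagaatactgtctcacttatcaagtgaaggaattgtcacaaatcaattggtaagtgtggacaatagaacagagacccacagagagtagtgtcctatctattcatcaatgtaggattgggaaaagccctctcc

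The Tex12 stretch holds all 3 motifs: GCGGGA begins 145, TGCCGC 127 and CACGTG 93 bases before the start. CACGTG begins 49 bases before the start in Taf7l and 29 in Ddx4. The stretch of Ddx4 has 31 CpG and 70.4% G+C, against 1 CpG and 35.2% in Vmn1r113, where none of the 3 motifs occurs. Over the table's full 300 bases (250 before and 50 after the start), CACGTG was present in 7 of the 13 germline members that have 1 RefSeq promoter (53.8%), in 24 of 255 members with one (9.41%) and in 8.10% of 13177 window genes. It was present in 3 of 14 germline genes outside the 500 (21.4%). GCGGGA was present in 5 of the 13 germline members (38.5%), 5 of 14 germline genes outside the 500 (35.7%), 4 of 9 imprinted members (44.4%), 21.6% of members and 25.6% of all window genes. In imprinted genes outside the 500, GCGGGA was present in 10 of 24 (41.7%). TGCCGC occurred in 3 of 9 imprinted members (33.3%), 4 of 24 imprinted genes outside the 500 (16.7%) and 3 of 13 germline members (23.1%). It occurred in 11.8% of members and 13.9% of all window genes. The median promoter held 20 CpG in germline members, 17 in imprinted members, 7 in all members and 13 in all window genes. These are matches of letters, and binding was not measured.

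The H3K9me3 and input libraries were shallow, with 369223 to 562581 reads in all windows and a median of 14 to 23 reads in a window. Differences between single windows therefore carry wide counting errors, and with 1 library per culture no ChIP difference could be tested. The targeted gene Dgcr8 stood at 10.6 and 10.3 TPM (a level scaled to transcript length and to the library's total) in serum, 4.66 with 2i, and 4.03 and 2.20 in knockout cells, a fall of 1.51 on the log2 scale (limma, adjusted p = 0.000358); the value is for the whole gene and does not separate the deleted part. Of 14 pluripotency markers 12 to 14 had a TPM of at least 1 in each bulk library. Of 7 fibroblast markers only Acta2 did, and the others stayed below 1 in every library. Acta2 had 39.9 and 54.3 TPM in serum, 12 with 2i, and 7.34 and 4.65 in knockout cells. The part of feeder cells in the results below was not tested.

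The serum values that chose the members are given as a description. The members had a median H3K9me3/input ratio of 2.96 in serum (the ratio of scaled counts, 0.5 counts added to both), against 0.96 for all windows. At the edge, Slc47a2, Prr18 and Atf7ip were the last inside, each with 41 H3K9me3 and 22 input counts, and Mir494, 4930447A16Rik and 4921501E09Rik were the first outside, each with 32 and 12. The members held 9.57% of all H3K9me3 reads in windows in serum, against 3.23% of input reads. They made up 475 loci without overlap, since some windows overlap and 6 repeat the coordinates of another member.

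In the libraries that took no part in the choice, the members were again above input. Their median ratio was 1.73 in 2i and 1.70 in the knockout, against 1.0 for all windows in both. The serum median of 2.96 belongs to windows picked as extremes of shallow counts, so it cannot be set against these values as a change. A ratio of at least 2 was found at 200 of the 500 members in 2i (40%), against 13.1% of all windows. In the knockout it was found at 182 members (36.4%), against 14.1% of all windows. At 101 members (20.2%, against 4.05% of all windows) it was reached in both, at 99 in 2i and not in the knockout, and at 81 in the knockout and not in 2i. A ratio above 1 was found at 442 members in 2i (88.4%, against 50.1% of all windows) and at 433 in the knockout (86.6%, against 49.7%). At or below input in both were 14 members (2.8%), a share not computed for all windows. The ratio depended on the kind of promoter in all windows: of the 11586 windows with H3K4me3 at or below the median in serum, 23% reached a ratio of 2 in 2i and 25.1% in the knockout. Against that group, the 404 members with such low H3K4me3 reached it at 43.1% and 41.8%.

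**Figure D1:**
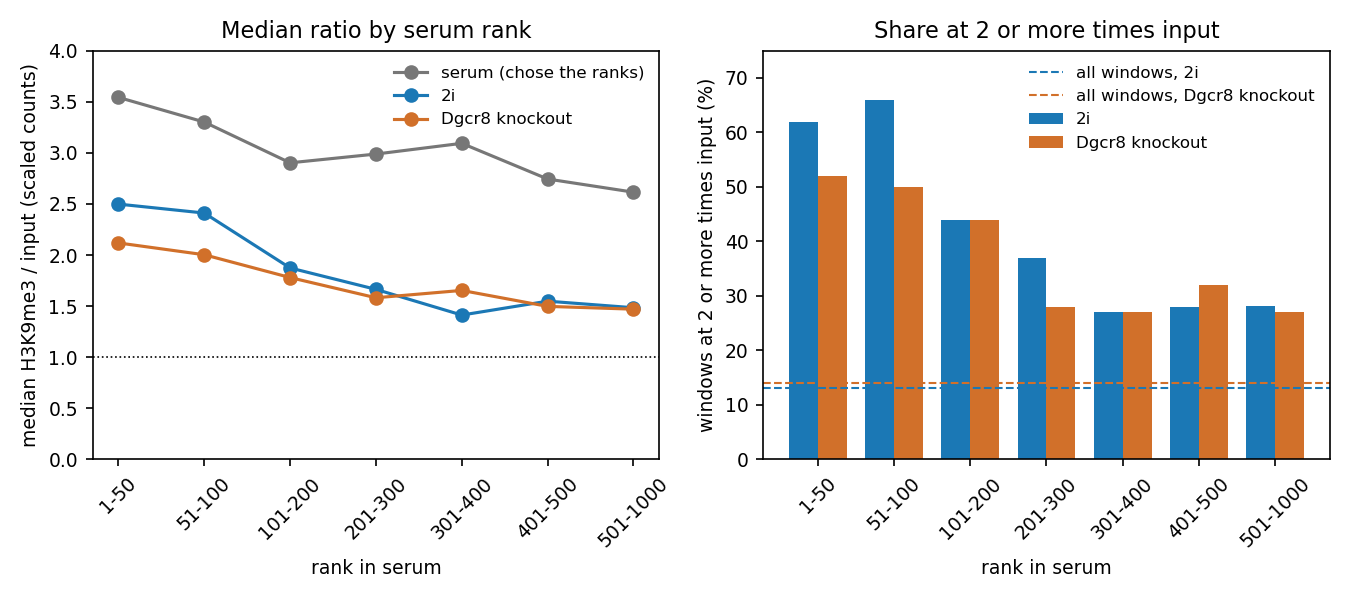
Left, median H3K9me3/input ratio (scaled counts) of windows grouped by their serum rank, in serum, 2i and the Dgcr8 knockout. Right, the percentage of each group at 2 or more times input in 2i and the knockout, with dashed lines for all windows. The first 100 ranks stand highest in both cultures, and ranks 301 to 500 are close to ranks 501 to 1000.

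Persistence followed the serum rank. Of ranks 1 to 50, 62% reached a ratio of 2 in 2i and 52% in the knockout, and of ranks 51 to 100, 66% and 50%. The shares were 27% in both cultures for ranks 301 to 400, and 28% and 32% for ranks 401 to 500. The 500 windows that follow, ranks 501 to 1000, reached it at 28.2% and 27%, so the edge of the list marks no step. The 500 richest windows chosen in the same way in 2i shared 160 windows (32% of each list) with those of serum. Those of the knockout shared 120 (24%) with serum, and 73 windows were in all 3 lists.

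The leading members also had high input counts. Mir101c (chr9:3038243-3039243, mm9 as deposited) had 10872 H3K9me3 and 3267 input counts in serum, 8969 and 4435 in 2i, and 8091 and 3735 in the knockout. This 1 window took 2.66%, 2.03% and 2.19% of all H3K9me3 reads in windows of the 3 cultures. Sfi1, a centrosome gene on chromosome 11, had 2167 H3K9me3 counts over 865 of input in serum, 3417 over 1059 in 2i and 1955 over 992 in the knockout. Its ratio was 2.81, 4.11 and 2.56. 4933403O03Rik and Dux, the next in rank, and Gm4981 lie side by side on chromosome 10. Dux, a transcription factor of the 2-cell embryo encoded in a tandem array, had 705 counts over 202 of input in serum, 387 over 302 in 2i and 428 over 311 in the knockout. All 3 of these windows lay above the median input of 19 to 23 counts. Input at least 2 times the median window in both 2i and the knockout was found at 40 members (8.0%) and at 1.76% of all windows. No source used here gives how reads from repeated sequence were assigned. Without such windows of high input, 192 of 460 members (41.7%) reached a ratio of 2 in 2i and 174 (37.8%) in the knockout. The cut used the same input counts that divide these ratios. All windows with such high input had a median ratio of 0.60 in both cultures, and the part of high input was not tested.

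Members were spread over the autosomes and X, with local groups. Chromosome 8 had the largest share of its windows among the 500 (44 of 1092, 4.03%), and chromosomes 19 and 18 the smallest of the autosomes (1.32% and 1.41%). None of the 13 windows of Y was a member. When neighbours less than 1 Mb apart were joined, 14 groups held 4 or more members, 87 in all. The largest lay on chromosome 4 (145053612 to 147184397), where 11 of 20 windows were members. It holds Zfp534, 2610305D13Rik and 9 other predicted genes or pseudogenes, and the median ratio of the 11 members was 2.04 in serum, 1.33 with 2i and 1.07 in the knockout.

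The imprinted Dlk1-Dio3 region on chromosome 12 held 10 members among 55 windows. They were the retrotransposon-derived Rtl1, the deiodinase gene Dio3 and the microRNA genes Mir127, Mir432, Mir136, Mir3071, Mir411, Mir380, Mir1197 and Mir487b. A group on chromosome 7 joined Peg3 and Usp29 to vomeronasal receptor genes (9 of 40 windows). The 4 windows of Snord116l1, Snord116l2, Ipw and Snord116, of the Prader-Willi region, were all members, but their median ratio was 1.31 in 2i and 1.91 in the knockout and none reached 2 in either. On X, Dmrtc1a, Dmrtc1b, Gm9112 and 1700011M02Rik kept a ratio of at least 2 in 2i at all 4 of these windows and in the knockout at 3.

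Germline genes had the largest share of windows in the list, 19 of 39 (48.7%), where 2.16% of all windows are members. The 39 genes were named with earlier results of these data known, so this count is a description. Over all 39 windows, members and others, 25 (64.1%) reached a ratio of 2 in 2i and 14 (35.9%) in the knockout, and the median ratio was 2.44 in 2i and 1.53 in the knockout. Of the 19 members, 18 were above input in 2i and 16 in the knockout, against 50.1% and 49.7% of all windows.

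Dazl had 97 H3K9me3 counts (95% exact Poisson interval 78.7 to 118) over 14 of input (7.65 to 23.5) in serum. It had 62 (47.5 to 79.5) over 30 (20.2 to 42.8) in 2i, and 54 (40.6 to 70.5) over 22 (13.8 to 33.3) in the knockout. The intervals cover counting error only. The serum counts chose the gene; in 2i and in the knockout, which took no part in the choice, the intervals of H3K9me3 and input did not overlap, and the ratios were 7.54, 2.61 and 3.15. Mael kept a ratio of 5.53 in 2i and 3.19 in the knockout, Fkbp6, a piRNA pathway chaperone, 4.57 and 3.04, Ddx4 5.07 and 2.42, and Taf7l 2.59 and 2.55. In a second set the ratio stayed above 2 in 2i and was near or below 1.5 in the knockout. It holds Slc25a31, a testis ADP/ATP carrier (5.01 and 1.34), Zcwpw1, a histone reader of meiosis (3.41 and 0.90), Piwil1, a piRNA-binding protein (2.59 and 1.04), and Spo11, which makes meiotic DNA breaks (2.42 and 1.15). Tex11 and Hormad1, both of meiotic chromosomes, stood at 1.65 and 1.31 in 2i and at 0.49 and 0.73 in the knockout.

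**Figure D2:**
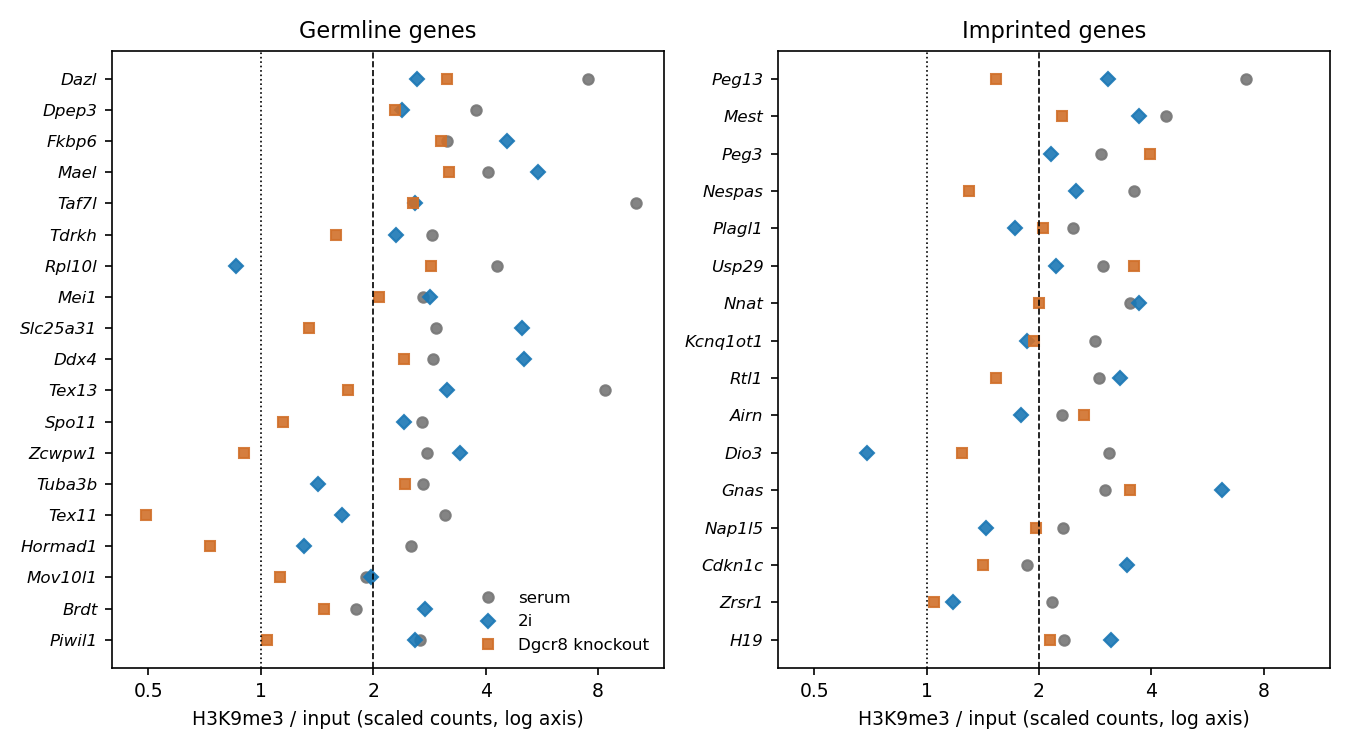
H3K9me3/input ratio (scaled counts, log axis) of the 19 germline and 16 imprinted members in serum, 2i and the Dgcr8 knockout, 1 library each, ordered by serum rank. The dotted line marks a ratio of 1 and the dashed line a ratio of 2; serum values chose the genes, and 14 germline members lie above 2 in 2i and 9 in the knockout.

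Imprinted genes gave 16 members of 63 windows (25.4%), of which 10 reached a ratio of 2 in 2i and 7 in the knockout. Over all 63 windows, members and others, 16 (25.4%) reached it in 2i and 15 (23.8%) in the knockout. For all windows the shares were 13.1% and 14.1%. The median ratio of the whole imprinted list was 1.39 in 2i and 1.12 in the knockout. All 16 members were above input in the knockout, and 15 in 2i, against 49.7% and 50.1% of all windows. Peg13, a noncoding RNA of chromosome 15, had 73 H3K9me3 counts over 11 of input in serum, 87 over 36 in 2i and 33 over 28 in the knockout. Peg3 and Usp29, whose windows overlap, had ratios of 2.15 and 2.23 in 2i and of 3.96 and 3.59 in the knockout. Gnas had 41 counts over 15, 60 over 12 and 44 over 16, ratios of 3.00, 6.17 and 3.51. Nespas, which starts nearby on the other strand, had 3.58, 2.52 and 1.30. Mest, a hydrolase gene, had 4.38, 3.71 and 2.31, and Nnat, a membrane proteolipid gene within an intron of Blcap, 3.50, 3.71 and 2.00. Dio3 lay at 0.69 in 2i and 1.24 in the knockout.

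Receptor and tissue-restricted families gave a smaller share of their windows than germline or imprinted genes, and the olfactory and zinc finger lists lay below the 2.16% of all windows. Olfactory receptor genes had 13 members of 1123 windows (1.16%), vomeronasal and trace amine receptor genes 10 of 352 (2.84%), and families of secreted and placental proteins 27 of 627 (4.31%). Their windows were nevertheless above input as whole lists: 30.5% of the olfactory windows reached a ratio of 2 in 2i and 34.6% in the knockout, and 35.5% and 48% of the vomeronasal windows. For all windows the shares were 13.1% and 14.1%. Windows with H3K4me3 at or below the median in serum, of any family, reached it at 23% and 25.1%. A list that joins oocyte and early embryo families to the Speer family gave 8 of 71 (11.3%). Of these 8 members 5 were Speer genes, so the share does not stand for oocyte or embryo genes. X-linked and related reproductive families gave 9 of 124 (7.26%). KRAB and other zinc finger genes, listed by gene names such as Zfp, gave 7 of 453 (1.55%). Zinc finger genes under predicted or RIKEN names are not in that list, so its share covers the named genes only. The whole list by name had a median ratio of 0.83 in 2i and 0.81 in the knockout. Zfp534 had 131 counts over 82 of input in serum, 106 over 108 in 2i and 75 over 72 in the knockout. The protocadherin members Pcdha6, Pcdha7 and Pcdha8 had ratios of 6.64, 1.68 and 5.53 in 2i and of 1.72, 0.93 and 1.19 in the knockout. Of the histone genes, the testis forms Hist1h2aa, Hist1h2ba and H1fnt had ratios of 3.46, 2.91 and 3.47 in 2i and of 2.43, 1.44 and 1.84 in the knockout, and the fourth member, H2afb1, had 0.78 and 1.88. No list held 220 of the 500 members.

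**Figure D3:**
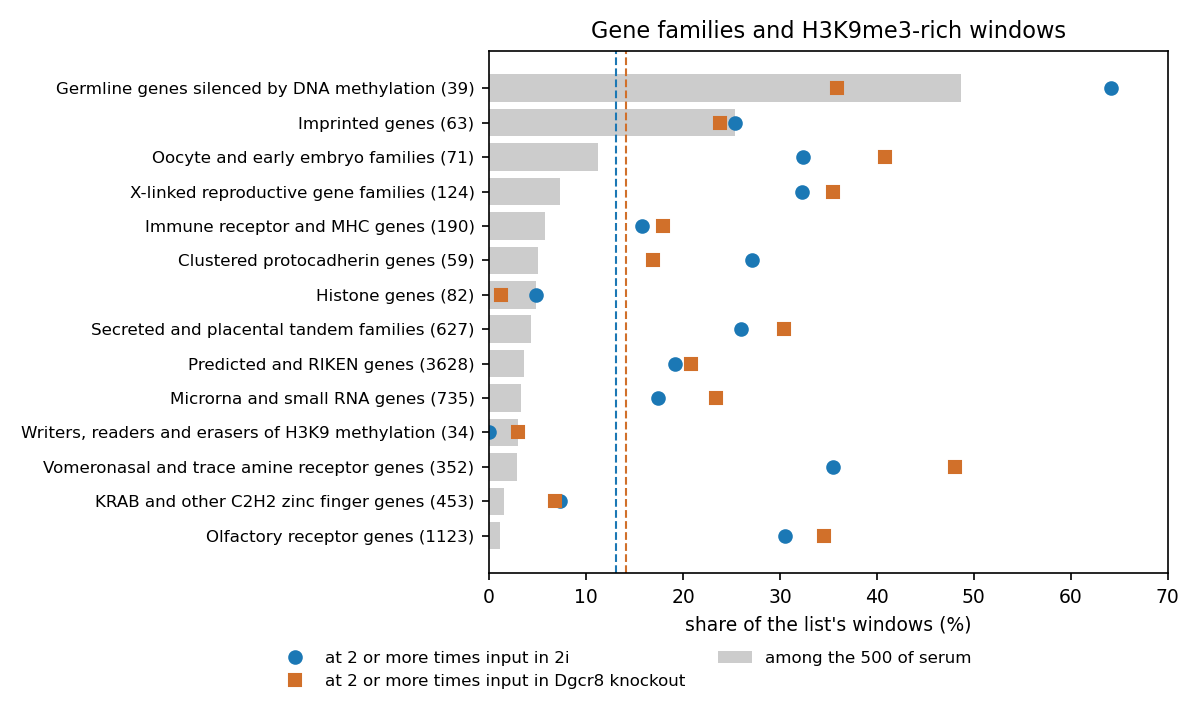
For each gene list (number of windows in brackets), the bar gives the percentage of its windows among the 500 of serum and the points the percentage of all its windows at 2 or more times input in 2i and the Dgcr8 knockout; dashed lines mark all windows. Germline genes have 48.7% of their windows among the 500, and the zinc finger list, formed by gene name, lies below the dashed lines. The list of oocyte and early embryo families also holds the Speer family.

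Some members differed widely between cultures, by counts that are small. Mfap2, a microfibril protein gene, had 61 H3K9me3 counts (46.7 to 78.4) over 9 of input (4.12 to 17.1) in 2i and 13 (6.92 to 22.2) over 30 (20.2 to 42.8) in the knockout. D1Pas1, a testis helicase gene, had 45 over 22 in serum, 54 over 24 in 2i and 5 (1.62 to 11.7) over 29 (19.4 to 41.6) in the knockout. Zbtb38, whose protein binds methylated DNA, had 27 over 3 in serum, 6 over 24 in 2i and 13 over 11 in the knockout. Pdgfa, a growth factor gene, had 30 over 4, 15 over 32 and 13 over 27. These genes were picked as the extremes of the members, and the low serum input of Zbtb38 and Pdgfa was part of the choice.

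Marks of active promoters were rare at the members, and H3K27me3 was more frequent than in all windows. H3K4me3, the mark of active or poised starts, was among the highest 10% of windows at 6 members in serum (1.20%), 10 with 2i and 11 in the knockout, and 404 members (80.8%) were at or below its median in serum. RNA polymerase II was among its highest 10% at 16 members in serum (3.20%), 20 with 2i and 29 in the knockout, and H3K27ac at 9, 17 and 18. H3K27me3, the Polycomb mark, was among its highest 10% at 144 members in serum (28.8%), 148 with 2i (29.6%) and 152 in the knockout (30.4%). Set against the input of the same culture, H3K27me3 reached a ratio of 2 at 169 members in 2i (33.8%, against 18.3% of all windows) and at 158 in the knockout (31.6%, against 16.9%). H3K36me3 was among its highest 10% at 126, 106 and 133 members, but its ratio to input reached 2 at 68 in 2i (13.6%, against 11.3%) and 90 in the knockout (18%, against 14.3%). Input itself was among its highest 10% at 69 members in 2i (13.8%) and 80 in the knockout (16%). Cross-reaction between antibodies was not tested. Both H3K27me3 among the highest 10% and H3K4me3 above the median were found at 64 members in serum (12.8%). The share of all windows with both was not computed, so whether 12.8% is high or low is not known.

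**Figure D4:**
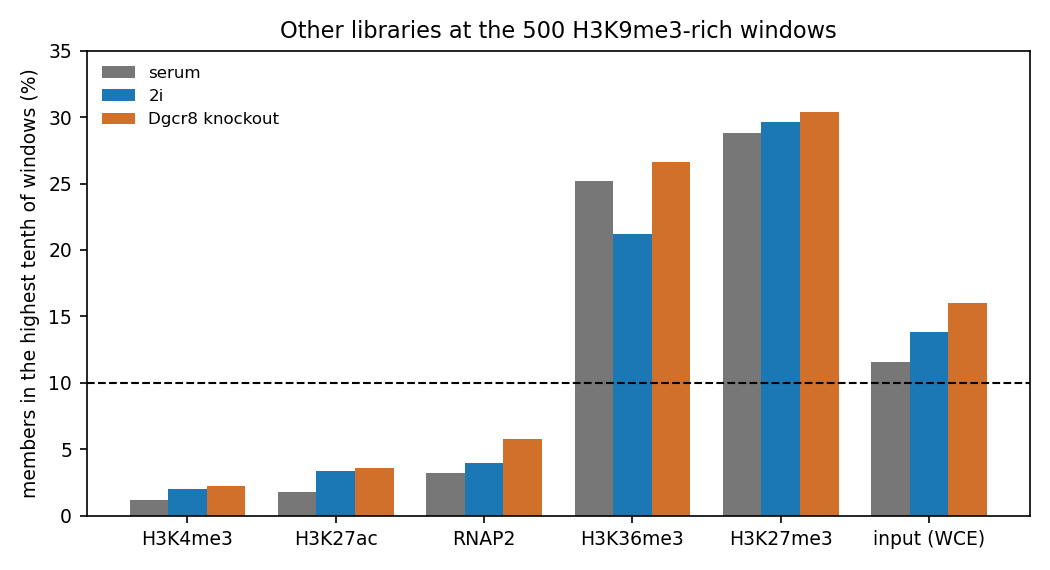
Percentage of the 500 members among the highest 10% of all windows for each library, in serum, 2i and the Dgcr8 knockout. The dashed line at 10% marks a set spread evenly over windows; H3K4me3, H3K27ac and RNA polymerase II lie below it, and H3K36me3, H3K27me3 and, less so, input lie above.

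Few member genes reached a TPM of 1. Of the 317 member genes in the bulk table (183 names were not in it), 52 and 48 had a TPM of at least 1 in the serum libraries (16.4% and 15.1%), against 42.3% and 38.1% of all window genes. In 2i the number was 64 (20.2%, against 45.3%), and in the knockout 84 and 80 (26.5% and 25.2%, against 55.8% and 54.8%). A TPM of 0 in all 5 libraries was listed for 58, a count not made for all window genes. The most highly expressed members came from the chromosome 4 group: Gm13051 at 137 and 169 TPM in serum, Zfp534 at 104 and 136, and Gm13154, Gm13157, Gm13152, Gm13138 and 2610305D13Rik between 46.3 and 81.5. These are related sequences, and reads shared between copies could be divided in error. Tex19.1, a protein of germ and stem cells that limits retrotransposons, had 87.7 and 72.4 TPM in serum.

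Changes in RNA were tested with limma on log2(TPM + 1) over the 10081 genes whose mean TPM reached 1, with Benjamini-Hochberg adjustment over all of them and a threshold of 0.05; for 2i the spread of the other groups is assumed, as it has 1 library. Only 73 members passed that filter, and a silent gene passed only if it was high in some library. In 2i 30 of the 73 were called (41.1%, against 32.1% of all genes) and in the knockout 51 (69.9%, against 74.3%). In 2i, 20 rose (27.4%, against 20.4% of all genes) and 10 fell (13.7%, against 11.8%). In the knockout 41 rose (56.2%, against 62.5%) and 10 fell (13.7%, against 11.7%). The knockout shares lie near the background, and the 2i shares, over genes that passed the filter, are a description. In bulk RNA, fewer expressing cells and less RNA per cell cannot be told apart. The median gene was 0.92 higher on the log2 scale in the knockout and 0.20 higher in 2i. With each library centred on its median gene, 16 members rose and 18 fell in 2i (21.9% and 24.7%, against 13.8% and 18.7% of all genes), and 17 rose and 27 fell in the knockout (23.3% and 37%, against 21.8% and 36.5%).

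Of the 19 germline members 12 were tested; 6 rose and 1 fell in 2i (against 20.4% and 11.8% of all genes), and 10 rose and none fell in the knockout (against 62.5% and 11.7%). With centred libraries 6 rose and 2 fell in 2i, and 4 rose (Hormad1, Dpep3, Mael and Tex11) and 2 fell in the knockout, beside the centred shares of all genes above. Fkbp6 had 1.1 and 1.04 TPM in serum, 32.5 with 2i, and 4.63 and 4.16 in knockout cells. It rose in 2i by 4.02 ± 0.31 (log2 change ± SE, adjusted p = 1.3e-06), with the 2i library far above the other 4. Dazl had 0.933 and 0.438 TPM in serum, 19.9 with 2i, and 5.07 and 3.19 in knockout cells, a rise of 3.65 ± 0.35 in 2i (adjusted p = 9.41e-06). The testis tubulin gene Tuba3b had 9.87 and 8.61 TPM in serum, 163 with 2i, and 31.5 and 18.5 in knockout cells, and rose by 4.0 ± 0.30 in 2i (adjusted p = 1.18e-06). The knockout's rises of these 3 genes (1.38, 1.60 and 1.30) were not called with centred libraries (0.26, 0.48 and 0.18).

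Mael had 0.510 and 0.579 TPM in serum, 0.530 with 2i, and 5.89 and 4.60 in knockout cells. It rose in the knockout by 2.01 ± 0.25 on the log2 scale, and its 2i level lay between the serum libraries. Mael passed the filter on mean TPM only through the knockout libraries, which fixed the direction of that call. Dpep3 no longer passed it when either knockout library was left out, so the same limit holds for its rise. Hormad1 had 1.70 and 0.615 TPM in serum, 7.18 with 2i, and 14.2 and 12.9 in knockout cells, and rose in both, in 2i only with the filter on low values. Ddx4 had 2.21 and 2.27 TPM in serum and 0.212 in 2i, where it fell by 1.42 on the log2 scale (SE 0.31, adjusted p = 0.0038). It had 3.91 and 3.32 in the knockout. In 2i the H3K9me3/input ratio was 4.57 and 2.61 at Fkbp6 and Dazl and 1.42 at Tuba3b, which rose, and 5.07 at Ddx4, which fell.

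**Figure D5:**
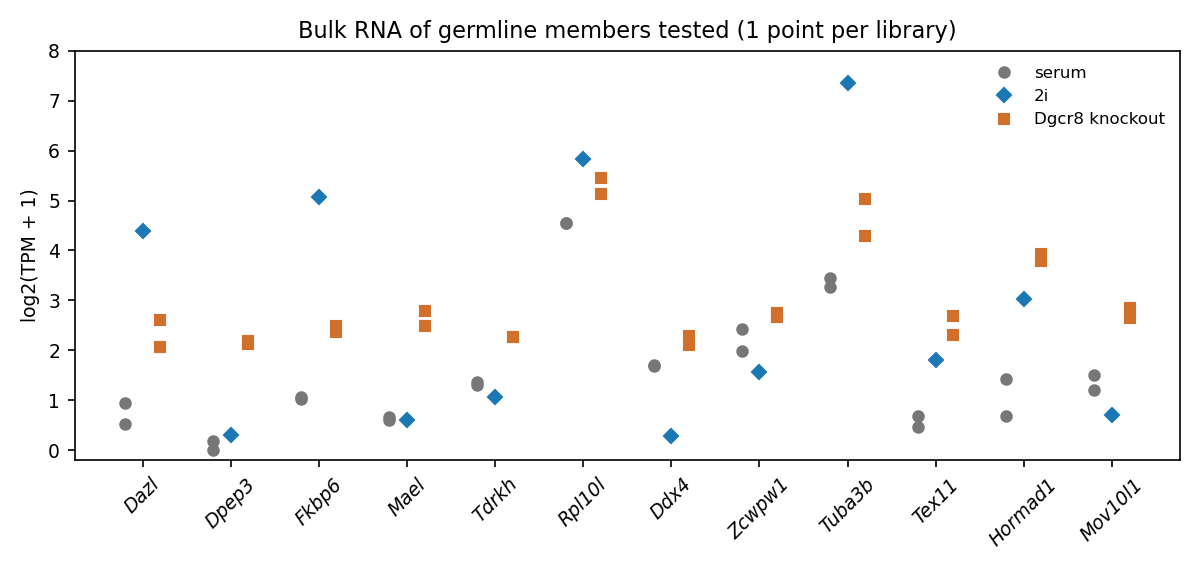
Bulk RNA of the 12 germline members tested, as log2(TPM + 1), 1 point per library (2 serum, 1 2i, 2 knockout). Dazl, Fkbp6 and Tuba3b are highest in 2i, Mael and Dpep3 are highest in the knockout, and Ddx4 is lowest in 2i.

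Among the other members, the larger rises in 2i included those of Gpat2, a piRNA-pathway acyltransferase of testis (0.0415 and 0.131 TPM in serum, 5.53 in 2i), the imprinted Plagl1 (0.0607 and 0 in serum, 4.86 in 2i) and Timm8a2. Gpat2, below a TPM of 1 in both serum libraries, passed the filter on mean TPM through other libraries, so its call could hardly be a fall. Plagl1 passed it only through the 2i library, which fixed the direction of its call. Its level rose by 2.51 ± 0.26 on the log2 scale. Its 2i ChIP ratio was 1.73, against 2.47 in serum and 2.06 in the knockout, where it had 0.180 and 0.192 TPM. The imprinted noncoding RNA H19 had 2.04 and 2.16 TPM in serum, was listed at 0 in 2i and had 0.437 and 0.544 in the knockout. With 2i its level fell by 1.63 on the log2 scale, and in the knockout by 1.06. H19 passed the filter only through the serum libraries, which fixed the direction of both calls. Mest fell by 1.11 in 2i (adjusted p = 0.0456), a call that was lost in 8 of 9 alternative fits. Atf7ip, a partner of SETDB1 and the only member among 34 genes for writing, reading or erasing H3K9 methylation, had 11.4 and 7.89 TPM in serum, 2.71 with 2i, and 13.7 and 12.9 in knockout cells. Its level fell by 1.5 on the log2 scale in 2i (adjusted p = 0.0028).

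In the knockout Vim, which encodes vimentin, had 18.2 and 19.7 TPM against 1.09 and 0.673 in serum, and rose by 3.41 ± 0.26 (adjusted p = 2.85e-07). The calcineurin-binding Tesc had 7.55 and 10.3 against 0.138 and 0. With serum levels this low, Tesc passed the filter on mean TPM through other libraries, so its call could hardly be a fall. Vim and Tesc lay at or near input in the knockout (ratios of 0.75 and 1.07). Summed TPM of 7 neural precursor markers, Vim among them, was 93.3 and 86.7 in the knockout, 21.1 in 2i and 4.38 and 4.07 in serum. Most of the knockout sums came from Sox2 (74.2 and 65.9 TPM), which is also on the pluripotency list. The part of neural precursor markers in the result was not tested. Tex19.1 had 18.8 and 13.9 TPM in the knockout and fell by 2.23 on the log2 scale (adjusted p = 1.5e-06). Sfi1 (6.60 and 4.66, against 17.9 and 25.4 in serum) fell by 1.77 on the log2 scale, and Zfp534 (47.9 and 43.9) by 1.35. The MHC class I genes H2-Q6, H2-Q7 and H2-Q9 carry identical values in the RNA table and fell by 2.01 on the log2 scale as 1 signal, from 47.5 and 33.2 TPM to 10.8 and 7.62.

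Of the H3K9 methylation genes themselves, 31 of 34 were tested. In 2i 5 rose and 3 fell, and in the knockout 15 rose and 3 fell, beside the shares of all genes given above. The HP1 gene Cbx3 rose by 1.93 in 2i, from 586 and 704 TPM in serum to 2451. The HUSH subunit gene Mphosph8 rose by 1.47 in 2i and 1.98 in the knockout. In the knockout Trim28 decreased by 1.23 on the log2 scale, from 43.8 and 26.2 TPM to 14.5 and 13.3. Setdb1 had 6.27 and 5.05 TPM in serum, 4.63 with 2i, and 7.91 and 9.70 in knockout cells, and passed the test in neither comparison.

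In single cells, 353 members were in the stem cell table. In at least 10% of cells at a TPM of 1 or more were 90 members on each serum plate, 126 in 2i and 137 in the knockout, 25.5%, 25.5%, 35.7% and 38.8%, against 56.1%, 54.8%, 64.1% and 65.9% of all window genes. In no cell of a plate were 239, 240, 212 and 191 members (67.7%, 68%, 60.1% and 54.1%). Over all window genes these shares were 40.4%, 40.5%, 32.7% and 29.7%. Dazl was detected in 20% and 18.3% of serum cells, 88.3% of 2i cells and 40.5% of knockout cells, and Fkbp6 in 12.2%, 14%, 89.4% and 21.4%. Gpat2 was in no serum cell and in 83% of 2i cells, and Brdt, a testis bromodomain gene, in 0%, 0%, 47.9% and 13.1%. H19 was in 26.7% and 19.4% of serum cells and in no cell of 2i or the knockout. A count of 0 cells allows a share of up to 3.33% and 3.23% of serum cells, 3.19% of 2i cells and 3.57% of knockout cells, for counting error only. Each plate is 1 sample, and no test was made between them. In neural precursors, 96 of the 232 members in their separately normalised table were in at least 10% of cells (41.4%, against 72.1% of all window genes). Vim was in all of them, Cdkn1c in 70.4% and Dazl in 5.56%.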

How the data were processed

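Reads were aligned and counted by the authors. Bowtie, RSEM and build mm9 stand in the submitters' processing notes, without roles or versions. The deposited ChIP table holds raw counts per window, and its coordinates are printed as deposited. The place of the window was inferred: in 3783 of 6072 neighbouring pairs on opposite strands (62.3%), window distances equal the distances between RefSeq (GRCm38.p6) starts within 1 base, as for windows centred on the start. Deposited RNA values are on a natural log scale, as ln(TPM + 1), which was reversed; TPM keeps no depth, so the RNA depth is unknown.

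ChIP counts were scaled to library sums over windows (reads in windows, not whole libraries), and ratios used 0.5 added counts. A ratio of 2 is a description, with no test. Bulk RNA was tested with limma 3.58.1 (R 4.3.3, trend) on log2(TPM + 1), with all 5 libraries, 2 residual and 10.2 prior degrees of freedom, and was tested on simulated data. The labels do not say that replicates were separate cultures, so p-values cover these libraries' spread alone, which may be technical. Single cells were described per plate, with no cell left out and no doublet caller run. Python 3.11.15, pandas 2.3.3 and matplotlib 3.10.9 were used.

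The members, gene lists and motifs were chosen with earlier results of these data known. Genes were named by rule: the 10 largest differences, the 3 members on each side of the edge, the 4 leading members of each list, the 8 largest called rises and falls per comparison, the 5 extremes of the ratio between cultures (at least 20 counts), the 8 highest serum TPM, all germline, imprinted and H3K9 methylation members, and the 4 highest for H3K4me3 and H3K27me3. Setdb1, Cbx3, Mphosph8, Pphln1 and Trim28, the genes of each local group and the promoters shown were picked after their values were seen. One gene that the rule names is not reported here.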

Additional observations from a re-analysis of the deposited data

How the results depend on the processing

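With no filter on low values, 1469 genes were called in 2i (3239 with it). Leaving out 1 library gave 2088 to 2693 called genes in 2i, the lowest without knockout replicate 2, and 23 to 26 members (30 with all libraries). In the knockout the range was 5688 to 7530 genes and 40 to 54 members (51). The fit with a replicate block called 3184 genes and 32 members in 2i, and 7692 genes and 55 members in the knockout. Over genes, the difference between the serum libraries had a correlation of -0.03 with that between the knockout libraries. That value alone cannot show whether same-numbered libraries share a batch, which was not tested. Higher calls were 63.4% of all calls in 2i and 84.2% in the knockout, and 42.4% and 37.4% with median-centred libraries.

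The choice of windows moved the member counts. The 500 windows chosen by ratio had 16 called of 37 tested genes in 2i (43.2%) and 22 in the knockout (59.5%), the 250 richest 18 and 29 of 46 (39.1% and 63%), and the 1000 richest 80 of 119 in the knockout (67.2%), beside 32.1% and 74.3% of all genes. A ratio of 2 was reached at 129 of the 250 richest in 2i and 111 in the knockout, and at 341 and 317 of the 1000 richest. A ratio of 3 was reached at 103 members in 2i and 65 in the knockout, and a ratio of 1.5 at 302 in the knockout. Lists of 500 chosen by ratio shared 56 windows between serum and 2i and 43 between serum and the knockout. Lists of 1000 shared 266 and 233, and lists of 250 shared 103 with 2i. At a TPM of 0.1 the expressed members numbered 134 and 107 for serum, 132 for 2i and 168 and 187 for the knockout. At a TPM of 10 they numbered 21, 19, 18, 28 and 28.

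Of 51 calls on named genes, 34 held in each alternative fit that tested them. In the knockout Tdrkh turned to -0.19 and -0.13 with median-centred and quantile-normalised libraries, Rpl10l to -0.38 and -0.0019 and Peg3 to -0.17 and -0.088. The construction of these 2 scalings removes the shift of the median gene. With no filter, and so more genes adjusted over, the 2i changes of Hormad1 and Atf7ip had limma adjusted p of 0.0734 and 0.0644, and Tex11 had 0.0633 without serum replicate 1. The cause of the other changes was not tested. Median window counts of 14 to 23 limit the ChIP results.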
